A study of Mus musculus
Rattus norvegicus and Mus musculus and Rattus norvegicus with 95 samples.

Results

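Tfr2, Naaa, Gip, Miox, Mras, Clu and Acot1 are 7 genes whose RNA level in allodiploid embryonic stem cells of mouse and rat (AdESCs) lay outside the range of both parental species. They were taken by name from 13926 mouse-rat homologues and had been chosen by their bulk FPKM differences between AdESCs and each parent. Those differences are therefore given as a description, with no test. AdESCs carry a haploid mouse and a haploid rat chromosome set in the same nucleus, and the study asked how their transcriptome compares with that of stem cells of each species. In bulk, mouse embryonic stem cells (ESCs) were 2 lines named F145 and F146. Rat ESCs were 2 lines named DA25 and DA53, and AdESCs were 4 lines named MR1-1, MR2-1, RM1-1 and RM2-1. All 8 were labelled as G0/G1 cells, untreated as far as the labels say, with 1 library of each line. The labels give no strain, age or allele for any group, nor what the prefixes RM and MR stand for. The single-cell set held 87 cells, which made 11 samples when grouped by cell type and line. They were 24 AdESC cells of the same 4 lines, 17 cells of embryoid bodies (EBs, aggregates of differentiating stem cells) of MR2-1 and RM1-1, and 46 cells from chimaeric animals. Of the last, fibroblasts carried MR1-1 and came from a mouse host. Neurons and 1 set of somatic testis cells carried RM1-1, also from a mouse host, while the lung cells and the other set of testis cells carried RM2-1 and came from a rat host.

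The 7 genes belong to no common pathway. Tfr2 is transferrin receptor 2, a sensor of iron-loaded transferrin in liver and red cell precursors. Naaa is a lysosomal amidase that splits fatty acid ethanolamides such as palmitoylethanolamide. Gip encodes the incretin hormone of intestinal K cells, and Miox the kidney-enriched oxygenase that opens the ring of myo-inositol. Mras is a RAS-family GTPase that, with Shoc2 and a protein phosphatase, activates RAF kinases. Clu encodes clusterin, a secreted chaperone, and Acot1 a cytosolic thioesterase that frees fatty acids from long-chain acyl-CoA. None of them is known as a defining gene of ESCs. All 7 symbols were found in the GENCODE M21 annotation of the mouse assembly GRCm38. Tfr2 lies on chromosome 5 (chr5:137569840-137587481, plus strand), Naaa on chromosome 5 (chr5:92257659-92278170, minus), Gip on chromosome 11 (chr11:96024545-96030831, plus) and Miox on chromosome 15 (chr15:89334398-89337015, plus). Mras lies on chromosome 9 (chr9:99385420-99437381, minus), Clu on chromosome 14 (chr14:65968483-65981547, plus) and Acot1 on chromosome 12 (chr12:84009490-84018371, plus). All are protein-coding, so the only members on a shared chromosome are Tfr2 and Naaa.

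Acot1 has a near-copy beside it, which bears on how its level can be read. Acot2, the mitochondrial thioesterase, lies before it on the same strand (chr12:83987861-83993873). Their coding sequences, from the GENCODE transcripts, had 1181 of 1236 aligned bases in common, an identity of 95.6%. Of the 1208 stretches of 50 bases in the Acot1 coding sequence, 527 (43.6%) also occurred without a difference in Acot2, so that a read from there fits both genes. The longest run without a difference was 273 bases in exon 3, the last exon of either gene (chr12:84017006-84017278 in Acot1, chr12:83992728-83993000 in Acot2). It is shown because a read that lies within it cannot be placed by its sequence.
Acot1 and Acot2, shared run: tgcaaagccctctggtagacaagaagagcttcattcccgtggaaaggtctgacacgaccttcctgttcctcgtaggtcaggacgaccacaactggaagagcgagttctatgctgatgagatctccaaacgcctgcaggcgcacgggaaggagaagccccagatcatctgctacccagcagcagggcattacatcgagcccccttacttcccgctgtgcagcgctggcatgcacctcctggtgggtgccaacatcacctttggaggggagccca
A stretch of 60 bases shortly before it in exon 3 holds 13 differences, the most in any aligned stretch of that length (chr12:84016942-84017001 and chr12:83992664-83992723, plus strand). Capitals mark the differing bases.
Acot1: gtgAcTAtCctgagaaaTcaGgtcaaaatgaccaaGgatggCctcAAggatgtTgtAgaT
Acot2: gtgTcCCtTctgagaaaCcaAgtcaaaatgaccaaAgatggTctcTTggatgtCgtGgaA
How reads shared by both genes, or by the mouse and rat copy of a gene, were assigned is not given in the sources used here, and the level of Acot1 is uncertain for that reason.

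Levels are FPKM, fragments scaled to transcript length and library size. In bulk, 6 of the 7 genes were higher and 1, Mras, was lower in all 4 AdESC lines than in all 4 parental lines. Among all 8794 genes that averaged 1 FPKM or more, 94 (1.07%) had every AdESC line above every parental line, and 109 (1.24%) had every AdESC line below. When genes were fitted with limma on log2(FPKM + 1), 342 (3.89%) passed an adjusted p of 0.05 against mouse ESCs, of which 238 were higher (2.71%) and 104 lower (1.18%) in AdESCs. Against rat ESCs 853 (9.70%) passed, 509 higher (5.79%) and 344 lower (3.91%). Passing against both parents in the same direction left 4 higher genes (0.0455%) and 1 lower gene (0.0114%), all of them among the 7. These counts come from the contrasts that chose the genes, so nothing is read from them and no p is given for a member. The count of 5 rested on single libraries. It was 1 without MR2-1, 2 without RM2-1, 6 without RM1-1 and 9 without MR1-1. Of the 5 genes, 1, 1, 3 and 5 were still among them, in that order. Fits without a mouse or rat line leave 1 line of that species, so those counts are not listed singly. Without the filter on low values the count was 6, with 2 of the 5 genes still among them.

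**Figure D1:**
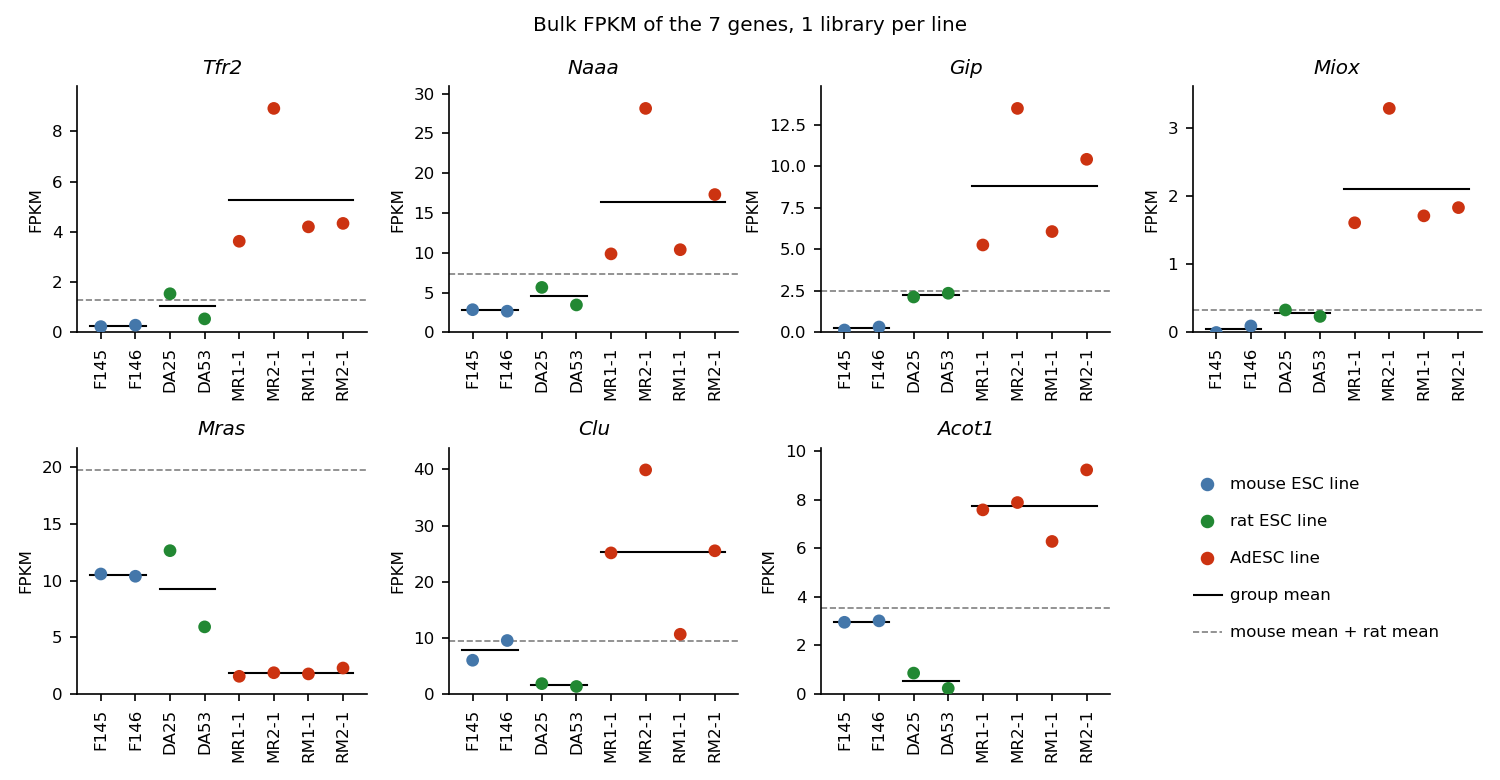
Bulk FPKM of the 7 genes, 1 panel per gene with its own axis from 0, and 1 point per library (mouse ESC, rat ESC and AdESC lines). Bars are group means and the dashed line is the mouse mean plus the rat mean: the 4 AdESC points lie above that sum for every gene except Mras, where they lie at 1.56 to 2.29 FPKM, below all 4 parental points.

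Tfr2, the iron sensor, was at 0.233 and 0.290 FPKM in F145 and F146 and at 1.54 and 0.541 in DA25 and DA53. In AdESCs it was at 3.63 (MR1-1), 8.91 (MR2-1), 4.199 (RM1-1) and 4.34 FPKM (RM2-1). The lowest AdESC line thus stood above the highest parental one, DA25, and MR2-1 stood apart from the other 3 AdESC lines. The AdESC mean of 5.27 ± 2.45 FPKM (SD, n = 4) was 5.06 times the rat mean and 20.1 times the mouse mean. On the log2(FPKM + 1) scale the fitted difference was 2.24 ± 0.39 (SE) from mouse and 1.59 ± 0.39 from rat.

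Naaa, the lysosomal amidase, was at 2.86 and 2.67 FPKM in the mouse lines and at 5.66 and 3.46 in the rat lines. MR1-1 and RM1-1 held 9.87 and 10.4 FPKM, RM2-1 held 17.3 and MR2-1 28.1. No AdESC line overlapped a parental one. The AdESC mean of 16.4 ± 8.51 FPKM was 3.60 times the rat mean and 5.94 times the mouse mean, with log2 differences of 1.56 ± 0.42 and 2.09 ± 0.42.

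Gip, the incretin hormone gene, was near 0 in the mouse lines, at 0.150 and 0.330 FPKM, and at 2.14 and 2.36 in the rat lines. It reached 5.27 FPKM in MR1-1, 6.08 in RM1-1, 10.4 in RM2-1 and 13.5 in MR2-1. Their mean of 8.82 ± 3.85 FPKM was 3.92 times the rat mean, and the log2 difference was 1.51 ± 0.38 from rat and 2.90 ± 0.38 from mouse. Among the 4 genes with rat above mouse, Gip had the widest log2 difference between the parental species, 2.25 ± 0.160 FPKM in rat against 0.240 ± 0.128 in mouse (n = 2 each).

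Miox, the inositol oxygenase, was listed at 0 in F145 and at 0.0955 FPKM in F146, and at 0.330 and 0.235 in DA25 and DA53. AdESC lines held 1.61 (MR1-1), 1.71 (RM1-1), 1.83 (RM2-1) and 3.28 FPKM (MR2-1). The lines were close to each other apart from MR2-1, and none overlapped a parental line. The AdESC mean of 2.11 ± 0.790 FPKM was 7.46 times the rat mean. Its log2 differences of 1.25 ± 0.33 from rat and 1.54 ± 0.33 from mouse are small beside that ratio, because the 1 FPKM added before the logarithm weighs on values this low.

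Clu, the secreted chaperone, was at 6.01 and 9.53 FPKM in the mouse lines, which here stood above the rat lines at 1.84 and 1.34. AdESC lines held 10.6 (RM1-1), 25.1 (MR1-1), 25.5 (RM2-1) and 39.9 FPKM (MR2-1). RM1-1 lay only just above F146, whereas the other 3 lines were far from any parental value. The AdESC mean of 25.3 ± 12.0 FPKM was 3.26 times the mouse mean and 15.9 times the rat mean, with log2 differences of 1.48 ± 0.45 and 3.22 ± 0.45. Of 13 markers of feeder fibroblasts, cells on which ESCs are grown, 13 were at 1 FPKM or more in both mouse lines and 10 to 13 in AdESC lines, but only 3 in rat lines. The summed markers came to 3406 FPKM in F145 and 638 in F146, to 367 and 693 in the rat lines and to 474 to 713 in AdESC lines. F145, with the highest marker sum, held less Clu than F146. In bulk, fewer cells of a type and less RNA per cell cannot be told apart, and the part of feeder cells in the Clu level was not tested.

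Acot1, the cytosolic thioesterase, was at 2.96 and 3.01 FPKM in the mouse lines and at 0.861 and 0.231 in the rat lines. AdESC lines held 6.29 (RM1-1), 7.59 (MR1-1), 7.89 (MR2-1) and 9.24 FPKM (RM2-1). The spread among AdESC lines was the narrowest of the 6 raised genes, 1.47-fold from lowest to highest. Their mean of 7.75 ± 1.21 FPKM was 2.60 times the mouse mean and 14.2 times the rat mean, with log2 differences of 1.12 ± 0.30 and 2.52 ± 0.30. For the near-copy Acot2 the order of the species was the reverse, 1.54 ± 0.226 FPKM in mouse, 2.45 ± 0.311 in rat and 1.25 ± 0.409 in AdESCs. With both genes added together, an alternative chosen after seeing the data, AdESCs held 9.01 ± 1.23 FPKM, 1.99 times the mouse sum of 4.53 ± 0.184.

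Mras, the RAS-family GTPase, stood on the other side of its parents. It was at 10.6 and 10.4 FPKM in the mouse lines and at 12.6 and 5.92 in the rat lines. All 4 AdESC lines lay within a narrow range, 1.56 (MR1-1), 1.77 (RM1-1), 1.87 (MR2-1) and 2.29 FPKM (RM2-1). The AdESC mean of 1.87 ± 0.307 FPKM was 5.60-fold below the mouse mean and 4.95-fold below the rat mean. The log2 differences were -2.005 ± 0.33 from mouse and -1.76 ± 0.33 from rat. The SD of the AdESC lines was smaller than that of the rat lines (4.75 FPKM, n = 2) and larger than that of the mouse lines (0.142 FPKM, n = 2).

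How each gene's values from both species were combined in an AdESC library is not given in the sources used here. AdESC levels were therefore also set against the sum of the mouse and rat means. All 4 AdESC lines lay above that sum for each of the 6 raised genes. Over all 8794 genes, 39 (0.443%) had every AdESC line above the sum and 303 (3.45%) had the AdESC mean above it. The AdESC mean over the sum was 6.38 for Miox, 4.05 for Tfr2, 3.54 for Gip, 2.70 for Clu, 2.24 for Naaa and 2.20 for Acot1. For the sum of Acot1 and Acot2 it was 1.20. Mras, at 0.0948 of the sum and 0.190 of the mean of both parents, was lower on either reading.

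**Figure D2:**
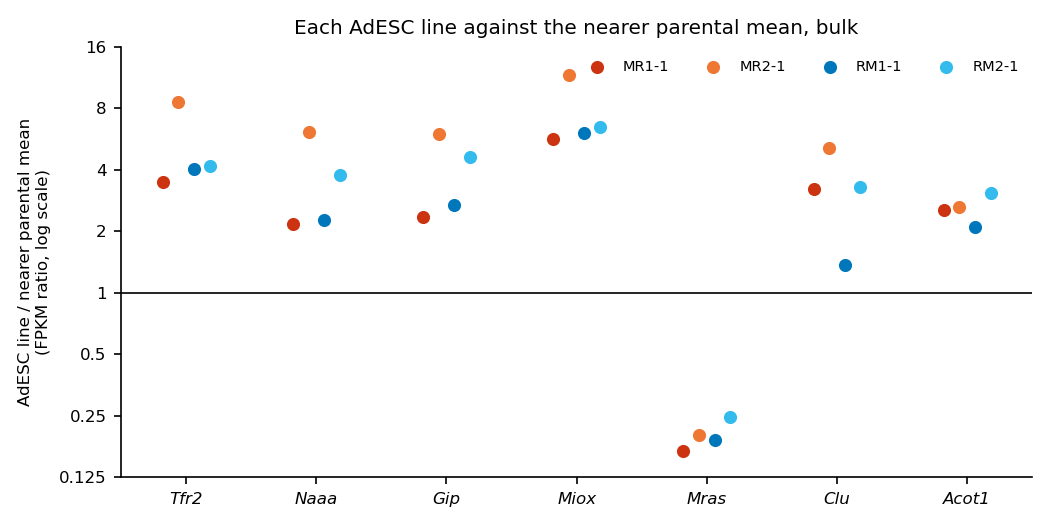
Bulk FPKM of each AdESC line divided by the nearer parental mean, which is the higher one for the 6 raised genes and the lower one for Mras, on a log2-spaced axis with 1 point per line. MR2-1 is the highest point for Tfr2 (8.56), Naaa (6.17), Gip (6.00), Miox (11.6) and Clu (5.14), and RM1-1 comes closest to its parent for Clu (1.37).

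The 7 genes were also compared between the AdESC lines, a difference that the choice of genes did not use directly. The choice did use the same 4 libraries, and genes apart from both parents in all 4 tend to differ little between them. The test is limited for the 7 for that reason. The RM lines (n = 2) were set against the MR lines (n = 2), and 0 of 8794 genes (0%) passed limma at an adjusted p of 0.05, with 51 at an unadjusted p under 0.05. None of the 7 passed, each with an adjusted p of 1.00. Clu had the widest difference, -0.90 ± 0.47 on the log2 scale, from 10.6 and 25.5 FPKM in the RM lines against 25.1 and 39.9 in the MR lines, whose values overlap. With 2 lines a side and differences of that error, a modest difference between RM and MR was not detectable. All 7 genes had higher FPKM in both lines numbered 2-1 than in both lines numbered 1-1, as had 2419 (27.5%) of all 8794 genes. MR2-1 held 2.46 times the Tfr2, 2.85 times the Naaa, 2.56 times the Gip and 2.04 times the Miox of MR1-1, where the median ratio over all genes was 1.12. Between RM2-1 and RM1-1 the ratios of those 4 genes were 1.03, 1.67, 1.72 and 1.07, with a median of 0.826 over all genes.

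The other genes of each pathway were described from lists of related genes. Over the 8794 genes the median log2 difference was -0.01 from mouse and -0.11 from rat. In iron uptake and sensing 10 genes besides Tfr2 were tested: 0 passed against mouse, and against rat 1 fell, Hfe, a regulator of iron sensing, at 0.633 ± 0.300 FPKM in AdESCs, 3.16 ± 1.38 in rat and 0.295 ± 0.299 in mouse. In N-acylethanolamine and ceramide metabolism 0 of 9 passed against mouse. Among those that rose against rat was Asah1, the acid ceramidase and a relative of Naaa (log2 difference 1.39 ± 0.34). Of the 3 incretin and enteroendocrine genes tested besides Gip, 0 passed against either parent. In inositol metabolism 1 of 14 passed, Impad1, a phosphatase, lower than in mouse (-1.44 ± 0.29) and higher than in rat (2.70 ± 0.29), where it was near 0.

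Of the 27 genes of the RAS-RAF-ERK core besides Mras, 0 passed against mouse and 1 fell against rat, the RAF kinase Araf, at 44.6 ± 17.6 FPKM in AdESCs, 150.3 ± 5.70 in rat and 17.7 ± 1.25 in mouse. The median of the 27 was 0.13 from mouse and -0.19 from rat, where Mras stood at -2.005 and -1.76. Among 11 extracellular chaperones and clusterin receptors, A2m, a protease inhibitor, fell against mouse (-2.36 ± 0.47) and rose against rat (1.93 ± 0.47), and Lrp1, an endocytic receptor, rose against rat (2.65 ± 0.53). Among 18 acyl-CoA thioesterase and fatty acid oxidation genes besides Acot1, the beta-oxidation subunit Hadhb rose against mouse (1.11 ± 0.26). Against rat 5 rose, Acot8, a peroxisomal thioesterase (1.59 ± 0.38), the acylcarnitine carrier Slc25a20 (1.31 ± 0.32), the mitochondrial thioesterase Acot13 (1.26 ± 0.33) and the dehydrogenases Acadm (1.23 ± 0.27) and Acadvl (1.05 ± 0.27). Against rat 1 gene fell, the brain-enriched thioesterase Acot7 (-1.08 ± 0.28). In all, 14 genes of these lists passed against a parent, and the AdESC mean of 13 of the 14 lay between the parental means. The exception was Slc25a20, at 53.9 ± 15.0 FPKM against 45.2 ± 20.9 in mouse and 20.6 ± 0.935 in rat. How often the AdESC mean lay between the parental means over all genes that passed was not counted, so nothing is read from the 13 of 14.

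Of the other Acot genes, Acot13 and Acot7 were the most abundant in AdESCs (14.7 to 21.98 and 32.7 to 58.9 FPKM), followed by Acot8 (7.96 to 20.0). Acot5, at 0.818 to 2.57 FPKM in AdESCs and 2.20 and 3.46 in the rat lines, was at or near 0 in the mouse lines. Acot3 and Acot11 stayed at or under 2.12 FPKM and Acot4 and Acot12 at or under 0.170 in AdESC lines. Apart from Acot1, the only Acot gene with every AdESC line above every parental line was Acot4, at levels near 0 (0.108 to 0.170 FPKM against at most 0.107).

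Genes whose bulk pattern was most like that of each member were ranked by Pearson's r of log2(FPKM + 1) over the 8 libraries, which share species and line between genes. The members were chosen for standing apart in the same AdESC libraries, which by itself raises r between them, so r is a description. For Tfr2 they were Miox (0.99), Naaa (0.98) and Tbkbp1 (0.97). For Naaa they were Tfr2, Tbkbp1 (0.97) and Miox (0.97), and for Miox they were Tfr2, Naaa and Gip (0.95). For Gip they were Rbp2, a retinol-binding protein of the gut (0.96), Naaa (0.95) and Tfr2 (0.95). Clu and Acot1 were near each other (0.96) and both nearest to the kinase gene Ripk4 (0.98 and 0.97), followed by Nprl2 (0.95) for Clu and Hmga2 (0.96) for Acot1. For Mras they were Hebp2 (0.93), Lgals8 (0.90) and Spata6 (0.90). The raised genes thus fell into 4 with rat at or above mouse (Tfr2, Naaa, Gip, Miox) and 2 with mouse above rat (Clu, Acot1).

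Single cells were not used to choose the genes. Their table was normalized separately from the bulk one, so levels across both are set side by side with no test. Over all genes of the bulk fit the single-cell mean of a line stood lower than its bulk value by a median of 0.39 (RM2-1) to 0.62 (RM1-1) on the log2(FPKM + 1) scale. No 2 of the 87 cells had the same values. Cells held 3444 to 6246 genes at 1 FPKM or more, with a median of 5181.5 in AdESC cells. AdESC samples had 6 (MR1-1), 8 (MR2-1), 4 (RM1-1) and 6 cells (RM2-1), and all 11 measured markers of naive pluripotency were at 1 FPKM or more in each.

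For Gip and Miox the mean over the single AdESC cells of each line stood above the parental bulk range, but it rested on part of the cells. Single cells of the parental lines were not in the set. The mean Gip level was 10.1 FPKM in MR1-1, 5.92 in MR2-1, 2.70 in RM1-1 and 8.93 in RM2-1, in each line above all 4 parental bulk libraries. It rested on 12 of 24 AdESC cells at 1 FPKM or more, up to 49.4 FPKM, with 10 cells at 0. In RM1-1 the whole Gip mean came from 1 cell of 4, at 10.8 FPKM, and in MR1-1 most of it from the cell at 49.4. With the highest cell of each line left out, a choice made after seeing the data that can only lower a mean, 2 of the 4 lines stayed above the parental libraries for Gip, MR2-1 (3.44 FPKM) and RM2-1 (4.53). Miox means were 4.27, 4.00, 5.87 and 2.52 FPKM in the same order, above every parental library and above the bulk value of each line. Yet only 5 of 24 cells held 1 FPKM or more, and in MR2-1 and RM1-1 the mean came from 1 cell each, at 32 and 23.5 FPKM. In RM2-1 nearly all of it came from 1 cell at 14.01 FPKM. Without the highest cell of each line only MR1-1 (1.86 FPKM) stayed above the parental libraries for Miox. Over the 8664 genes with a bulk AdESC mean of at least 1 FPKM, the median gene was at 1 FPKM or more in 62.5% of AdESC cells (quartiles 25% and 95.8%). Miox (20.8%) lay under the lower quartile, as did Naaa (20.8%). Those genes were not matched for level, and Miox averaged only 2.11 FPKM in the bulk AdESC lines.

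Clu was at 8.45 FPKM (MR1-1), 26.2 (MR2-1), 12.1 (RM1-1) and 30.02 (RM2-1), and 3 of the 4 lines lay above the highest parental library of 9.53. It was at 1 FPKM or more in 15 of 24 AdESC cells, the most of the 7 genes, and reached 153.7 FPKM in 1 RM2-1 cell. Without that cell RM2-1 was at 5.29 FPKM, within the parental range, and with the highest cell of each line left out only MR2-1 (13.6 FPKM) lay above it. Feeder fibroblast markers were scarce in these cells, with 2 or 3 of 13 at 1 FPKM or more and a summed level of 107 to 127 FPKM per sample. Mras, the lowered gene, was at 0.713 FPKM in MR1-1, 0.785 in MR2-1, 1.14 in RM1-1 and 2.49 in RM2-1. In every line it lay below the lowest parental library of 5.92. All 7 samples of differentiated cells lay below 5.92 as well, at 4.30 FPKM or less, so this place was not particular to AdESC cells. Mras was at 0 in 15 of 24 AdESC cells, and the 2 AdESC cells above 5.92 FPKM were both of RM2-1, at 8.26 and 6.68.

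Naaa and Acot1 were lower in single cells than in bulk in 4 of 4 lines and Tfr2 in 3 of 4, the exception being MR1-1 (4.54 against 3.63 FPKM). The median log2 difference of single cells from bulk over all genes was also below 0 in every line, from -0.39 (RM2-1) to -0.62 (RM1-1). The counts by themselves therefore do not set these genes apart. Tfr2 was at 4.54 FPKM in MR1-1 and 1.01 in RM2-1, but at 0.402 in MR2-1 and 0 in all 4 RM1-1 cells, so that 1 of the 4 lines lay above the highest parental library. Naaa was at 7.77 FPKM in RM2-1, 3.60 in MR1-1, 0.249 in RM1-1 and 0.0141 in MR2-1, although MR2-1 had the highest bulk level of 28.1 FPKM. All 8 MR2-1 cells were under 1 FPKM. Only RM2-1 lay above the parental libraries, and 1 cell of it at 35.3 FPKM made most of that mean. Acot1 was at 0.864 (MR1-1), 6.09 (MR2-1), 0.946 (RM1-1) and 1.74 FPKM (RM2-1), above the parental libraries in MR2-1 alone, with 7 of 24 cells at 1 FPKM or more. Its near-copy Acot2 was the stronger of the pair in cells, at 9.17, 22.4, 11.1 and 10.1 FPKM, whereas in the bulk AdESC lines Acot1 held 7.75 ± 1.21 and Acot2 1.25 ± 0.409 FPKM. Acot2 was at 1 FPKM or more in 20 of 24 AdESC cells. The sum of both genes was 10.0 to 28.5 FPKM in cells and 7.79 to 10.5 in bulk, in all 4 lines above the highest parental sum of 4.66. In the 7 differentiated samples Acot2 stood at 10.9 ± 4.40 FPKM (SD), beside 13.2 ± 6.21 in the 4 AdESC samples. A single-cell sum above the parental bulk libraries was therefore not particular to AdESC cells. The order of Acot1 and Acot2 thus differed between the tables, and the part of read assignment in this was not tested.

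**Figure D3:**
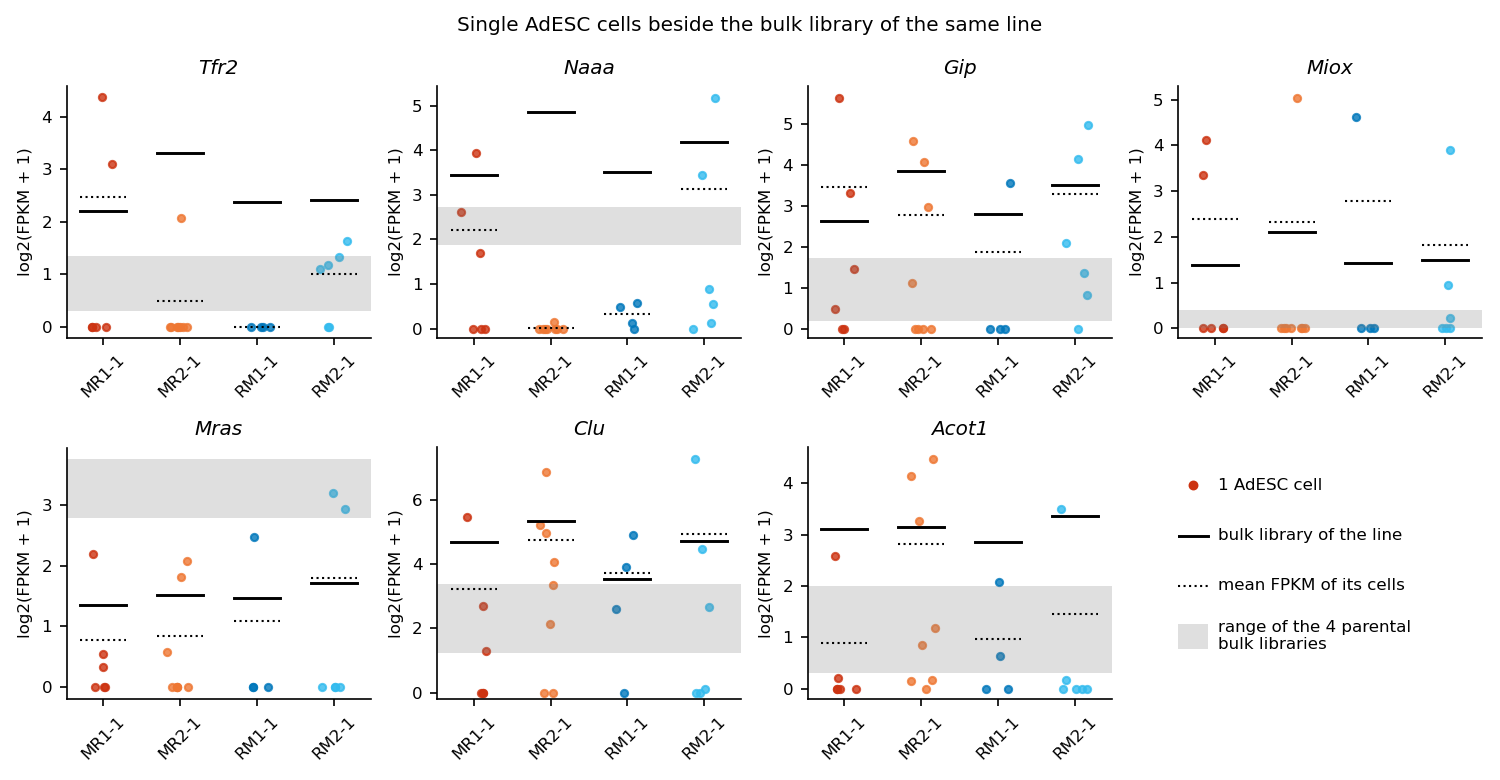
log2(FPKM + 1) of the 7 genes in 24 AdESC cells, 1 point per cell by line, with the bulk level of the line (solid bar), the log2 of the mean FPKM of its cells plus 1 (dotted bar) and the range of the 4 parental bulk libraries (grey). Most cells lie at 0 for Tfr2 and Miox (17 of 24 each), and the dotted bars of Mras lie under the grey range in all 4 lines.

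**Figure D4:**
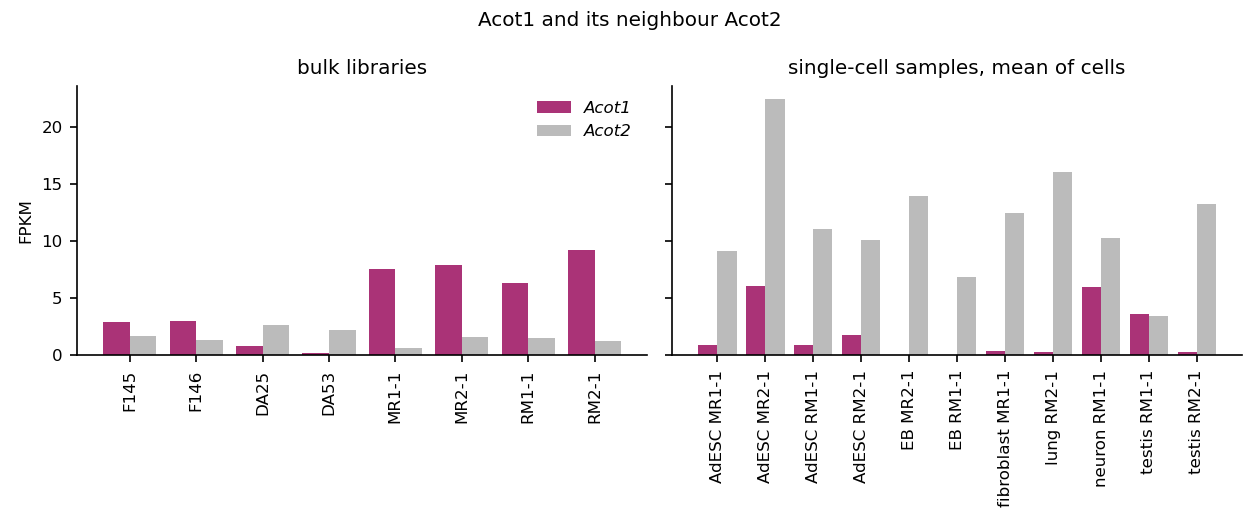
FPKM of Acot1 and its neighbour Acot2 in the 8 bulk libraries (left) and as the mean of the cells in the 11 single-cell samples (right), on 1 axis from 0. Acot1 is the taller bar in the bulk AdESC and mouse lines and Acot2 in the rat lines and in nearly all single-cell samples, the exception being testis RM1-1 (3.59 against 3.46 FPKM).

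Few single AdESC cells held many of the 6 raised genes at 1 FPKM or more, but each gene was found in only part of them. Tfr2 was at that level in 7 cells, Naaa in 5, Gip in 12, Miox in 5, Clu in 15 and Acot1 in 7. Whether the genes shared a cell more or less often than these numbers alone would give was not tested. Of 24 cells, 2 had none of the 6 at 1 FPKM or more, 5 had 1, 9 had 2, 5 had 3, 2 had 4, 1 had 5 and 0 had all 6. The cell with 5, from MR1-1, held 19.6 FPKM of Tfr2, 2.22 of Naaa, 49.4 of Gip, 16.4 of Miox and 43.7 of Clu, with Acot1 and Mras at 0. It had 4753 genes at 1 FPKM or more, fewer than the median AdESC cell. The 2 cells with none had 4692 and 5885.

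The 4 AdESC samples were then compared with the 7 samples of differentiated cells of the same lines. Sample labels were first set against marker genes. Neuron markers fitted the neuron sample, with 8 of 9 at 1 FPKM or more and a sum of 539.6 FPKM. None of 7 lung epithelial markers reached 1 FPKM in the lung sample (Sftpc, Sftpa1, Sftpd, Scgb1a1, Ager and Lamp3 at 0), which held 11 of 13 fibroblast, 4 of 4 smooth muscle (myoid) and 3 of 6 Leydig markers. In both testis samples 1 of 7 Sertoli and 1 of 6 Leydig markers reached 1 FPKM. The testis sample of RM1-1 held 6 of 9 neuron markers (387 FPKM in sum) and that of RM2-1 4 of 4 myoid markers (4590 FPKM). The same 4 lines gave the AdESC samples, so the cell line is a pairing that a block in the fit can take up. Differences below are limma fits on log2(mean FPKM + 1) with p-values adjusted over all genes tested, and 1343 of 8421 genes passed (15.9%), 621 higher (7.37%) and 722 lower (8.57%) in differentiated cells. Counted as the mean over cells of log2(FPKM + 1), the split was 456 higher and 1152 lower.

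Clu, the secreted chaperone, rose in differentiated cells. It was at 1330 FPKM in EB MR2-1, 111 in EB RM1-1, 143 in fibroblasts, 130.0 in neurons, 2617 in lung, 287 in testis RM1-1 and 328 in testis RM2-1, against 8.45 to 30.02 in the 4 AdESC samples. The lowest differentiated sample was above the highest AdESC sample. The log2 difference was 4.30 ± 0.75 (adjusted p = 0.00122, higher in 7 of 7 samples). It stayed past the threshold with any 1 of the 11 samples left out, between 3.82 and 4.58 (adjusted p at most 0.00897). Clu was at 1 FPKM or more in 57 of 63 differentiated cells and 15 of 24 AdESC cells. In the order of levels, lung stood first, then EB (720.3 ± 862, n = 2), testis (307 ± 28.8, n = 2), fibroblasts, neurons and AdESCs (19.2 ± 10.5, n = 4). Of these neighbours lung, fibroblasts and neurons have 1 sample each, and EB and testis did not differ beyond the spread of the EB samples. With AdESCs, EBs and testis in a fit of 8 samples, Clu passed in EBs (4.42 ± 0.78, adjusted p = 0.00633) and in testis cells (4.10 ± 0.78, adjusted p = 0.00615). In that fit 546 of 8218 genes passed in EBs (6.64%), 228 higher (2.77%) and 318 lower (3.87%). In testis cells 1012 passed (12.3%), 509 higher (6.19%) and 503 lower (6.12%). Without EB MR2-1 the Clu call in EBs was lost (adjusted p = 0.0512), and without the RM1-1 or RM2-1 testis sample that in testis cells (adjusted p = 0.0715 and 0.0882). Without the filter on low values both were lost (adjusted p = 0.0743 and 0.0595).

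Gip fell on differentiation, but the call was weak. It was listed at 0 in all 46 cells from chimaeras and was found in EBs, at 1.82 FPKM in MR2-1 (3 of 12 cells at 1 FPKM or more) and 8.75 in RM1-1, the latter from 1 cell of 5 at 43.7 FPKM. The log2 difference over 7 differentiated samples was -2.18 ± 0.67 (adjusted p = 0.0373). With the cell line as a block the adjusted p was 0.0587, and the call was lost in 8 of the 11 fits that left out a sample (adjusted p at most 0.114) and without the filter on low values (adjusted p = 0.0749). In the fit with AdESCs, EBs and testis cells, both testis samples were at 0 for Gip. It thus passed the filter on low values through the AdESC and EB samples, which also gave all of its spread. The test in testis cells is limited for that reason. There Gip fell by 2.87 ± 0.73 (limma, adjusted p = 0.0249, 0 in 24 of 24 cells), and the adjusted p was 0.0889 with the block and 0.0698 without the filter. That call too was lost without either testis sample (adjusted p = 0.104 and 0.103) or without AdESC MR1-1, MR2-1 or RM2-1. In EBs the difference of -0.48 ± 0.73 did not pass (adjusted p = 0.744), and a difference between EBs and testis cells was not tested.

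Miox was found in EB MR2-1 (5.18 FPKM, 2 of 12 cells) and fibroblasts (1.28 FPKM, 1 of 10 cells) and listed at 0 in EB RM1-1, lung, neurons and both testis samples. It fell by 1.78 ± 0.57 on the log2 scale (limma, adjusted p = 0.0452). Miox averaged 4.17 FPKM in the AdESC samples and 0.922 in the differentiated ones, so it passed the filter of 1 FPKM through the AdESC samples. In the fit with testis cells it passed the filter through the AdESC and EB samples. Both tests are limited for that reason. The adjusted p was 0.0662 with the line as a block, 0.0592 with upper-quartile scaling and 0.0631 without the filter, and the call was kept in 2 of 11 fits that left out a sample. Neither the EB difference (-1.02 ± 0.78, adjusted p = 0.465) nor the testis difference (-2.33 ± 0.78, adjusted p = 0.0721) passed. In the latter fit Miox passed when an EB sample was left out (adjusted p = 0.0244 and 0.0247) and with a pseudocount of 0.1.

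The other 4 genes did not pass. Mras was at 0.693 and 0 FPKM in the EBs and at 2.30 to 4.30 in the 5 samples from chimaeras, the first 2 below and 4 of the 5 above the highest AdESC sample of 2.49 (log2 difference over all 7 samples 0.53 ± 0.55, adjusted p = 0.529). Naaa was at 4.96 and 5.14 FPKM in the EBs, 4.16 in fibroblasts, 2.75 in neurons, 1.55 and 2.50 in testis cells and 0 in lung (0.38 ± 0.68, adjusted p = 0.725). Tfr2 was found in 3 of 63 differentiated cells, 2 fibroblasts, of which 1 reached 72.8 FPKM, and 1 lung cell (-0.38 ± 0.67, adjusted p = 0.722). In the fit with EBs and testis cells alone Tfr2 was under the filter on low values. Acot1 was highest in neurons (5.97 FPKM, 6 of 8 cells) and testis RM1-1 (3.59), both carrying RM1-1 from a mouse host, and at or under 0.373 FPKM in the other 5 samples (-0.65 ± 0.64, adjusted p = 0.507). Naive pluripotency markers moved in the same comparison, with 9 of 11 lower in differentiated cells, and the feeder fibroblast markers summed to 354 to 3589 FPKM against 107 to 127 in AdESCs. Their part in the Clu, Gip and Miox differences was not tested.

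**Figure D5:**
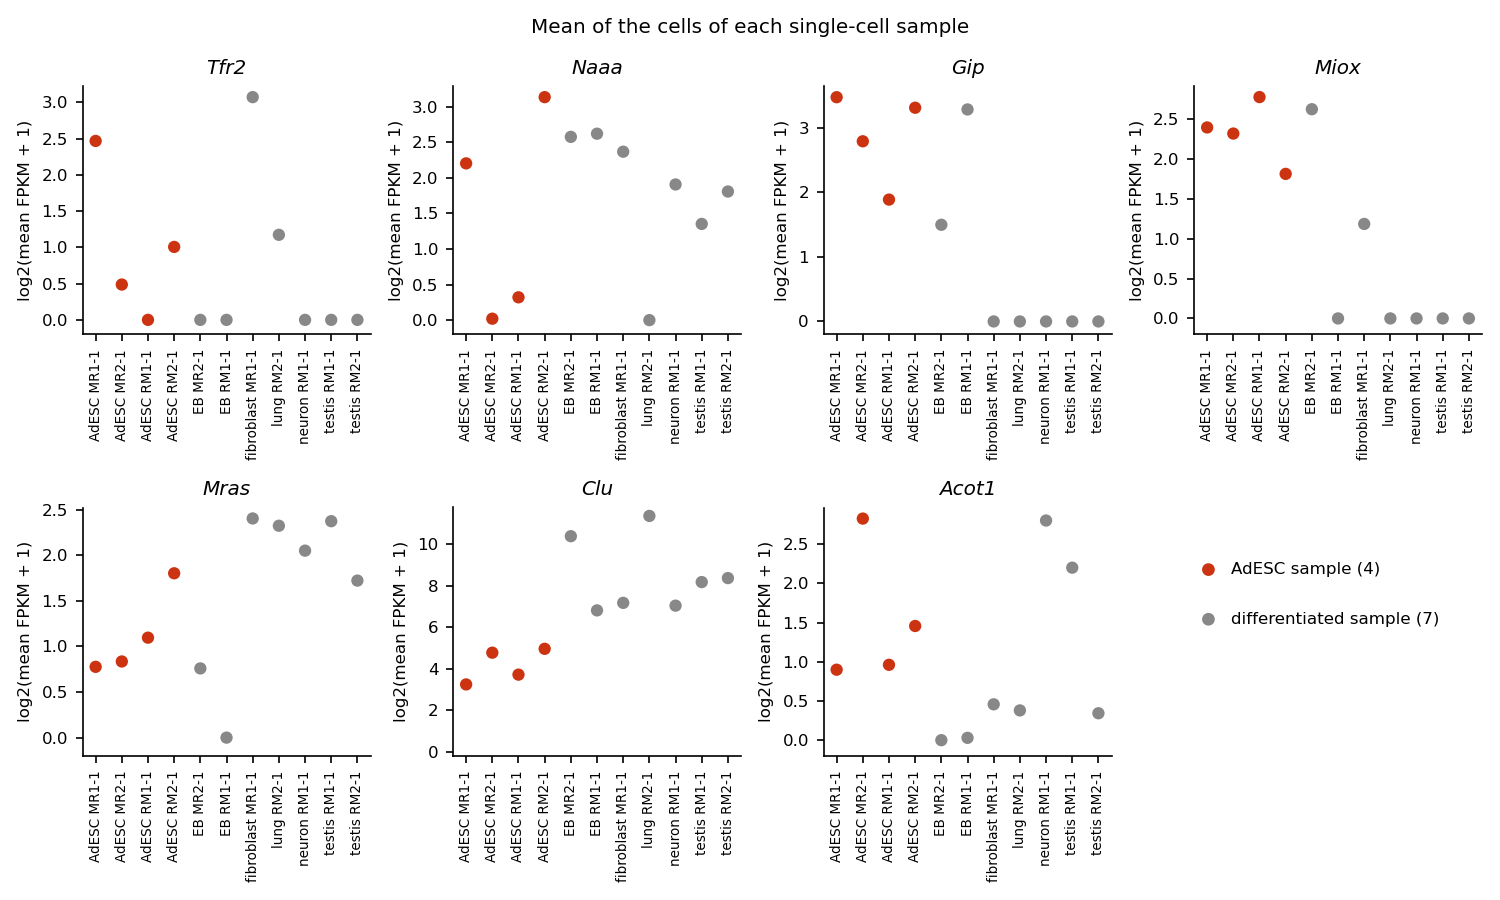
log2 of the mean FPKM plus 1 of the cells of each of the 11 single-cell samples, 1 panel per gene with its own axis (red, 4 AdESC samples, grey, 7 differentiated samples). All 7 grey points of Clu lie above its red ones, 5 of the 7 grey points of Gip lie at 0, and the 2 EB points of Mras lie below its other grey points.

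Genes of the same lists also changed between these samples, and those that passed are named, a choice made after their values were seen. In the RAS-RAF-ERK core 3 of 26 rose, Dusp6, a phosphatase of ERK (3.37 ± 0.63, adjusted p = 0.00223), the RAS inhibitor Nf1 (1.52 ± 0.49, adjusted p = 0.0465) and the kinase Mapk3 (1.42 ± 0.45, adjusted p = 0.0427), and 1 fell, the feedback inhibitor Spry2 (-1.97 ± 0.32, adjusted p = 0.000627). Of 12 chaperones and clusterin receptors 3 rose with Clu, the collagen chaperone Serpinh1 (3.51 ± 0.71, adjusted p = 0.00354), the lipoprotein receptor Vldlr (1.98 ± 0.46, adjusted p = 0.0089) and the endoplasmic reticulum chaperone Hspa5 (1.36 ± 0.25, adjusted p = 0.00173). Of 10 iron genes the exporter Slc40a1 rose and the ferritin receptor Ncoa4 fell. Of 10 genes of N-acylethanolamine metabolism the cannabinoid receptor Cnr2 fell (-2.69 ± 0.37, adjusted p = 0.000161). Yet Cnr2 held 46.3 ± 7.61 FPKM (SD) in the single-cell AdESC samples and only 0.255 ± 0.0908 in the bulk AdESC lines. The reason for that gap was not tested, and the fall of Cnr2 is uncertain because of it. Of 14 inositol genes Akr1a1 rose, and of 2 incretin genes 0 passed. Of 16 thioesterase and fatty acid oxidation genes Acot5 and Slc25a20 fell and Acadvl rose. The list medians were -0.05 for the RAS-RAF-ERK core, 0.99 for the chaperones, -0.55 for iron, 0.78 for N-acylethanolamine metabolism, 0.12 for inositol, -0.78 for the 2 incretin genes and 0.29 for thioesterases and fatty acid oxidation, beside 0.02 over all 8421 genes.

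Over the 11 single-cell samples the nearest patterns to each member came from other genes than in bulk, with r over 11 samples that share lines and lie partly at 0. For Clu they were Rilpl1 (0.96), Timp2 (0.94) and Aga (0.92), and for Gip Bik (0.93), Foxh1 (0.93) and Dhx9 (0.93). For Miox they included E130012A19Rik (0.98) and Trim25 (0.97), and for Tfr2 they were Trim29 (0.91), Mmp12 (0.90) and Got1l1 (0.84). For Mras they were Pacsin3 (0.89), Fam213a (0.88) and Fnbp1 (0.86), for Naaa Fbxo34 (0.85), 1110037F02Rik (0.83) and Tstd2 (0.83), and for Acot1 Ccdc101 (0.90), 2900011O08Rik (0.89) and Fam81a (0.89). No member was among the 3 nearest of another here.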

How the data were processed

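RNA levels of 7 genes were taken from 2 deposited tables, 8 bulk libraries and 87 single cells, each with the same 13926 homologues. Per the submitters' processing notes, the authors worked with Cufflinks 2.1.1, TopHat2 2.0.10 and FastQC 0.10.1, on mm10 and rn5. Both deposited tables hold FPKM. The tables do not name the unit, which was taken from those notes and the size of the values. How species were joined is not given in the sources used here. Read depth is unknown. The most frequent ratio of low FPKM values to those of F145 was 0.763 (RM1-1) to 1.11 (F146) in F146 and the AdESC libraries. The FPKM of 1 read falls as depth rises, so a ratio under 1 stands for a deeper library than F145. The rat libraries gave no clear ratio. No counting interval is therefore given.

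Groups came from the labels. Cells were averaged per sample. limma 3.58.1 (R 4.3.3) gave the differences of log2(FPKM + 1) for genes averaging 1 FPKM or more, with Benjamini-Hochberg adjustment over all genes and a threshold of 0.05. The fits were tested on simulated data. Replicates are lines, and whether libraries came from separate cultures is not stated, so p-values measure the spread between these samples. Members, lists and tests were chosen with earlier results of these data known. The named genes are all 7 members, called genes of each list, at most 4 over both contrasts with a parent unless a count of 5 or fewer is spelled out, other Acot genes, and the 3 nearest patterns of each member. Some genes that this rule names are not reported here. The pairing of single-cell samples comes from the shared cell line. Deviations of paired samples correlated at -0.02 to 0.04. Alternatives were a pseudocount of 0.1, no filter, upper-quartile scaling, RM and MR as separate groups, the mean of log values over cells, a block, and leaving out each sample. Promoter motifs, planned, were not run. Transcripts were aligned with Biopython 1.88.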

Additional observations from a re-analysis of the deposited data

Results flagged for a closer look

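In 6 of the 21 groups of 4 to 10 samples examined, 1 sample lay far from the others by Dixon's test at the 95% level. The test marks about 1 in 20 groups by chance when samples are replicates with a normal spread. The 7 differentiated samples are of several cell types, and 5 of them were at 0 for each of Tfr2, Gip and Miox. The bulk AdESC values had served to choose the genes, so the count is not read against that rate. In the bulk AdESC lines MR2-1 stood apart for Tfr2, at 8.91 FPKM where the next line held 4.34, and for Miox, at 3.28 FPKM where the next held 1.83. Among single-cell AdESC samples MR2-1 stood apart for Acot1, at a mean of 6.09 FPKM where the next held 1.74. Among the 7 differentiated samples the fibroblasts of MR1-1 stood apart for Tfr2, at 7.42 FPKM where the next held 1.26. EB RM1-1 stood apart for Gip, at 8.75 FPKM where the next held 1.82. EB MR2-1 stood apart for Miox, at 5.18 FPKM where the next held 1.28. In those 3 differentiated samples the level rested on 1 or 2 cells at 1 FPKM or more.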

How the results depend on the processing

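The count of 5 genes beyond both parents was 8 with upper-quartile scaling, 6 without the filter on low values (2 of the 5 among them), 1 with RM and MR as separate groups and 0 to 10 when a library was left out. Genes passing against mouse were 156 with RM and MR separate and 151 to 344 leaving out a library, and against rat 223 to 1063. With a pseudocount of 0.1 the split was 297 higher and 55 lower against mouse, and 741 and 308 against rat. Against mouse it was 159 and 152 without the filter on low values. Upper-quartile scaling gave 752 higher and 165 lower against rat and moved the median over all genes there from -0.11 to 0.20. The direction of all 7 members against either parent was kept under these settings and in the fits that left out a library. Every AdESC library lay beyond every parental one for these genes. Leaving out a library or changing the pseudocount or filter could therefore not reverse it, and nothing is read from this. Without MR2-1 Miox fell under the filter on low values, so that fit gave no value for it. In single cells, leaving out a sample gave 791 to 1367 genes in differentiated cells, 282 to 711 in EBs and 619 to 1180 in testis cells, and EBs had 346 without the filter. With the mean of log values the EB split was 187 higher and 425 lower.

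With the cell line as a replicate block, 1457 genes passed in differentiated cells, 249 in EBs and 449 in testis cells. The block ended the Gip and Miox calls given above and changed no other call of the 7 genes in these fits. With the line number as a block, chosen after seeing the data, 0 genes passed between RM and MR lines. Deviations of the same-numbered lines correlated at 0.553, and the labels do not say what the number pairs. Leaving out a sample reversed 4 differences that had not passed: Tfr2 in differentiated cells (-0.71 to 0.11), Naaa there (-0.082 to 0.96), and Gip (-1.37 to 0.42) and Miox (-2.33 to 0.30) in EBs. For all of these the cause was not tested. Read depth is unknown, 4 to 20 cells stand behind each single-cell sample, and a gene at 0 FPKM in a cell may be below detection.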
